A study of Sus scrofa with 29 samples.

Results

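The granins SCG2 (secretogranin II), CHGA (chromogranin A) and CHGB (chromogranin B) were followed in the inner lining of 2 arteries of trained and sedentary pigs. They were taken by the gene symbol of the platform annotation, which gave 1 probe set for each gene, 3 of the 23999 probe sets tested. Their Entrez gene identifiers on the array are 497237 for SCG2, 397540 for CHGA and 397154 for CHGB. The symbols of all 3 were found in RefSeq's gene table. The genes were selected on the training differences of the same arrays, in which SCG2 had stood out. Training differences of the 3 genes are therefore given as a description, with no test.

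Granins are acidic, soluble proteins of the regulated secretory pathway, stored with hormones and neuropeptides in the dense core granules of endocrine cells and neurons. Prohormone convertases cut them into peptides. SCG2 yields secretoneurin, known to act on endothelial cells and to promote the growth of vessels, and CHGA yields vasostatin and catestatin, known to act on vessels and on catecholamine release. Transcription of granin genes is known to respond to cyclic AMP through the factor CREB, and to be held down outside neurons by the repressor REST.

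RNA came from the luminal surface of the brachial artery, in the foreleg, and of the internal mammary artery, in the chest wall, of healthy pigs. Exercised pigs had run on a treadmill for 16 to 20 weeks, with bouts that reached 85 min on 5 days per week, and were killed about 24 h after the last bout. Sedentary pigs had been kept in their enclosures without exercise. Single-colour porcine arrays covered internal mammary scrapes of 7 sedentary and 8 exercised pigs and brachial scrapes of 7 sedentary and 7 exercised pigs. These 29 arrays came from 15 pigs, each a separate animal. By the sample labels 14 pigs gave both arteries, and exercised pig 12_2 gave the internal mammary artery alone, whereas the series description says that its unpaired pig had the brachial artery. For the 8 internal mammary samples of exercised pigs, GEO's source name calls the pig sedentary, while title and treatment tag call it exercised. The titles were followed. Strain, sex and age were not given in the labels used here.

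All values are log2 intensities as deposited, so a difference of 1 is a doubling, and intensities of different probe sets were not compared with each other. The medians of the arrays lay between 7.13 and 7.28. The endothelial genes PECAM1 (group means 13.9 to 14.0) and CDH5 (12.3 to 12.5) were present throughout. The mean of 11 measured endothelial markers averaged 10.8 to 11.0 in the 4 groups. KDR, 1 of them, read only 3.90 to 4.19, so its presence is not shown. The scrapes also held other cells, since the mean of 10 smooth muscle markers averaged 11.7 to 12.3 and that of 8 macrophage markers 8.69 to 9.31. In such bulk samples, fewer cells of a type and less RNA per cell cannot be told apart. The arteries also differed in added control RNA: the BioB spike-in averaged 9.43 ± 0.20 on the 14 brachial arrays and 8.62 ± 0.18 (SD) on the 15 internal mammary arrays, with no overlap. A 28S ribosomal RNA probe set averaged 7.97 ± 0.75 and 12.3 ± 1.54 on the same arrays. Other spike-in probe sets were higher on brachial arrays too: 1 for BioC averaged 10.8 and 10.0, 1 for BioDn 12.8 and 12.0 and 1 for CreX 14.0 and 13.9. Ribosomal RNA controls did not follow one direction. For 18S ribosomal RNA 1 probe set averaged 12.0 (brachial) and 11.0 (internal mammary) and another 8.07 and 11.7. The artery and the handling of its arrays therefore cannot be told apart. Internal mammary arrays of sedentary pigs 11_1, 13_2 and 15_1 stood apart in a few genes, SCG3 among them, and results that rest on them are given with and without these pigs.

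SCG2 was higher in exercised than in sedentary pigs in both arteries, about 4-fold in the brachial and 6-fold in the internal mammary artery, while CHGA and CHGB differed by less than 1.2-fold in either. In the internal mammary artery, SCG2 stood at 4.53 in sedentary pig 10_2, 4.57 in 11_4, 4.74 in 12_3, 5.20 in 17_1, 5.24 in 11_1, 5.46 in 13_2 and 5.79 in 15_1. The exercised pigs stood at 6.48 in 14_3, 6.48 in 15_4, 6.91 in 11_3, 7.46 in 10_5, 8.43 in 12_2, 8.53 in 12_5, 8.53 in 10_1 and 9.08 in 15_2. The groups did not overlap, and every one of the 8 exercised pigs lay above every sedentary pig. This held for 0.154% of all probe sets, a share from which nothing is read here because the same contrast had singled SCG2 out. The exercised pigs were spread over 2.60 log2 units and the sedentary pigs over 1.26, with 4 exercised pigs above 8.4 and the other 4 below 7.5.

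In the brachial artery, SCG2 stood at 3.93 in sedentary pig 11_4, 4.09 in 11_1, 4.42 in 12_3, 4.42 in 10_2, 4.65 in 13_2, 4.78 in 15_1 and 5.25 in 17_1. The exercised pigs stood at 4.97 in 15_4, 5.97 in 14_3, 6.39 in 10_1, 6.82 in 11_3, 6.96 in 10_5, 6.97 in 12_5 and 7.25 in 15_2. Here the groups overlapped, because exercised pig 15_4 lay below sedentary pig 17_1, and the other 6 of 7 exercised pigs lay above every sedentary pig. Complete separation with the exercised arrays higher was seen for 0.383% of all probe sets in this artery.

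**Figure D1:**
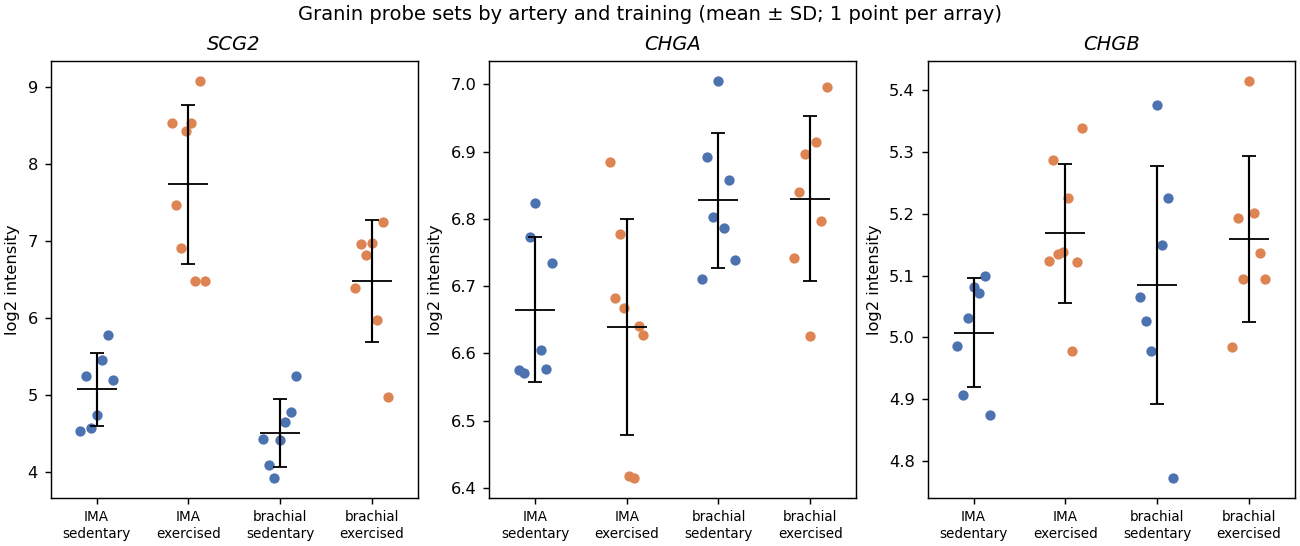
Log2 intensity of SCG2, CHGA and CHGB on each array (points), with the mean and SD of each group (lines), for sedentary (blue) and exercised (orange) pigs in the internal mammary artery (IMA) and the brachial artery. Each panel has its own vertical scale, and SCG2 spans 3.93 to 9.08 while CHGB spans 4.77 to 5.42. The exercised and sedentary SCG2 groups are apart in the internal mammary artery and overlap by 1 pig in the brachial artery.

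The group means of SCG2 were 5.08 ± 0.48 (SD, n = 7) in sedentary and 7.74 ± 1.03 (n = 8) in exercised internal mammary scrapes. They were 4.51 ± 0.44 (n = 7) in sedentary and 6.48 ± 0.79 (n = 7) in exercised brachial scrapes. Sedentary values were low in both arteries (3.93 to 5.79) beside array medians of 7.13 to 7.28. As signal over background could not be measured, the presence of SCG2 in sedentary pigs is not shown. Whether background affected the size of its differences was not tested. In order of level, the groups ran from sedentary brachial and sedentary internal mammary to exercised brachial and exercised internal mammary, and the ranges of all neighbours in this order overlapped. The fitted training difference was 2.66 ± 0.34 (SE; 95% interval 1.95 to 3.37) in the internal mammary artery, a 6.32-fold difference. It was 2.00 ± 0.36 (1.27 to 2.72), or 3.99-fold, in the brachial artery, and 2.33 ± 0.28 (5.02-fold) averaged over both. By size alone, with no test, SCG2 ranked 3rd of 23999 probe sets in the internal mammary artery, where the nearest named genes were the protease MMP7 above it (-2.73 ± 0.89) and CHI3L1 below it (2.47 ± 0.60). Without sedentary pigs 11_1, 13_2 and 15_1 the MMP7 difference was 0.03 ± 0.20. In the brachial artery it ranked 4th, between the protease inhibitor SERPINE2 (2.01 ± 0.26) and VNN2 (-1.78 ± 0.28).

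The date given for each pig in the labels divides the animals into 8 dated first and 7 dated last, and both periods held sedentary and exercised pigs. The SCG2 training difference among the pigs dated first was 2.54 ± 0.34 (brachial) and 3.06 ± 0.32 (internal mammary). Among those dated last it was 1.40 ± 0.59 and 2.16 ± 0.59. The direction was the same in both periods. SCG2 was selected on training differences of these same arrays, so the shared direction is not independent support. The difference between periods was not tested. Without the 3 sedentary pigs named above, the difference was 2.00 ± 0.44 (brachial) and 2.98 ± 0.43 (internal mammary).

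CHGA, the chromogranin that gives catestatin, showed nearly the same levels with and without training. In the internal mammary artery sedentary pigs ranged from 6.57 over a median of 6.60 to 6.82, and exercised pigs from 6.41 over 6.65 to 6.88. In the brachial artery sedentary pigs ranged from 6.71 over 6.80 to 7.01, and exercised pigs from 6.63 over 6.84 to 7.00. The groups overlapped widely in both arteries. The training difference was -0.03 ± 0.07 (SE; 95% interval -0.17 to 0.12) in the internal mammary and 0.00 ± 0.07 (-0.14 to 0.15) in the brachial artery.

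CHGB, the second chromogranin, ranged over at most 0.60 log2 units in a group. Internal mammary values ran from 4.87 over a median of 5.03 to 5.10 in sedentary pigs and from 4.98 over 5.14 to 5.34 in exercised pigs. All exercised pigs but 14_3 lay above every sedentary pig, by small amounts: the lowest of these 7 was 5.12. Brachial values ran from 4.77 over 5.07 to 5.38 in sedentary and from 4.98 over 5.14 to 5.42 in exercised pigs, with the groups overlapping. The training difference was 0.16 ± 0.07 (SE; 95% interval 0.01 to 0.31), or 1.12-fold, in the internal mammary artery and 0.07 ± 0.07 (-0.08 to 0.23) in the brachial artery. The CHGB probe set read low (group means 5.01 to 5.17) beside array medians of 7.13 to 7.28. The presence of CHGB is therefore not shown, and small differences in it do not show that it was unchanged.

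Whether training differences were unequal between the arteries was tested as an interaction in limma, with Benjamini-Hochberg adjustment over all 23999 probe sets. The interaction is built from the training differences on which the 3 genes were selected. Its p-values for them are therefore not independent support. For SCG2 the brachial difference minus the internal mammary difference was -0.66 ± 0.43 (SE; 95% interval -1.54 to 0.21; adjusted p = 1.00). A two-sided exact permutation of pigs between the 7 exercised and 7 sedentary animals with both arteries gave p = 0.109 (adjusted p = 0.187 over 12 tests of the 3 genes). The interval runs from a brachial difference smaller by 1.54 to one larger by 0.21, so equal differences are not shown. For CHGA the interaction was 0.03 ± 0.09 and for CHGB -0.09 ± 0.09 (adjusted p = 1.00 for each). Over the whole array 0 probe sets (0%) passed an adjusted p of 0.05 in limma, and 1035 had an unadjusted p under 0.05. Without exercised pig 10_1, 1 probe set passed.

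The arteries themselves were compared within pigs. Averaged over training, this contrast had not singled the genes out. Within exercised or sedentary pigs alone it reuses values of the training differences that had. SCG2 was lower in the brachial artery, and CHGA was slightly higher there. Brachial SCG2 was below internal mammary SCG2 in 13 of the 14 pigs with both arteries. In the 7 exercised pigs the brachial value was lower by amounts from 0.09 in 11_3 to 2.15 in 10_1, here given as brachial minus internal mammary: -0.09 in 11_3, -0.50 in 10_5, -0.51 in 14_3, -1.50 in 15_4, -1.55 in 12_5, -1.82 in 15_2 and -2.15 in 10_1. In sedentary pigs the same differences were 0.05 in 17_1, -0.10 in 10_2, -0.32 in 12_3, -0.65 in 11_4, -0.81 in 13_2 and -1.15 in 11_1, and 15_1 lay between these last, with 4.78 against 5.79. Pig 17_1 was thus the only one with a higher brachial value, by less than 0.1.

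**Figure D2:**
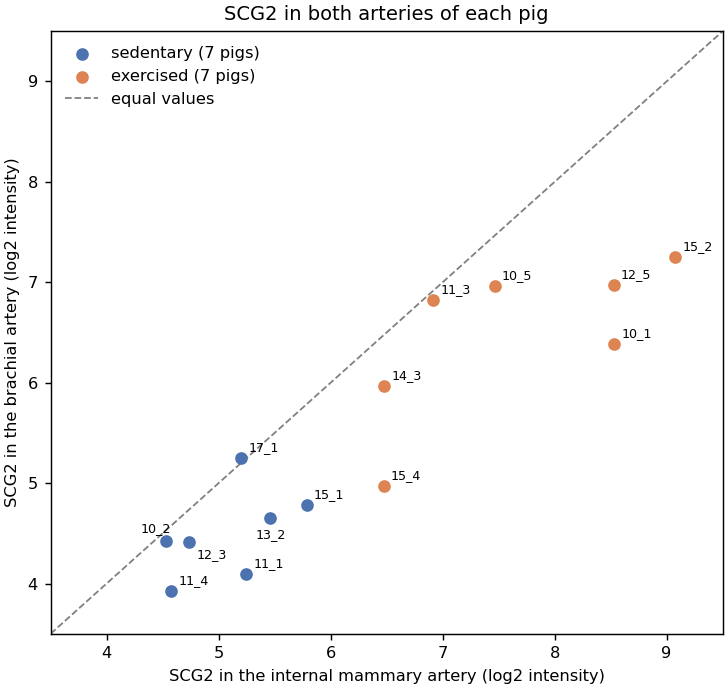
SCG2 in the internal mammary artery (horizontal axis, log2 intensity) and the brachial artery (vertical axis, log2 intensity) of the 14 pigs with both arteries, with 7 sedentary pigs in blue and 7 exercised pigs in orange. The dashed line marks equal values; 13 of 14 pigs lie below it, and exercised pigs 10_1, 12_5, 15_2 and 15_4 lie farthest from it, at -1.50 to -2.15.

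Averaged over training, SCG2 was lower in the brachial artery by 1.87-fold (log2 difference -0.90 ± 0.21 SE; 95% interval -1.34 to -0.46; limma adjusted p = 0.000840). Sign flips within the 14 pigs gave an exact two-sided p of 0.000244 (adjusted p = 0.00293). At this threshold 54.3% of all probe sets differed between the arteries, so a call in this contrast was common. In exercised pigs the difference was -1.23 ± 0.30 (limma adjusted p = 0.00162; exact sign-flip p = 0.0156, the smallest that 7 pigs allow, adjusted p = 0.0469). In sedentary pigs it was -0.57 ± 0.31, which did not pass (limma adjusted p = 0.153, exact sign-flip p = 0.0313, adjusted p = 0.0750). SCG2 read low in sedentary pigs in both arteries, so equal levels are not shown. Of all probe sets 41.2% passed in exercised and 34.8% in sedentary pigs. Because SCG2 was selected on training differences of the same arrays, the p-values within exercised or sedentary pigs are not independent support. With the mean of the macrophage markers added as a covariate the difference in exercised pigs was -0.75 ± 0.40 (limma adjusted p = 0.174). Without sedentary pigs 11_1, 13_2 and 15_1 the sedentary difference was -0.26 ± 0.41 and the average -0.74 ± 0.26 (adjusted p = 0.0196).

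CHGA was higher in the brachial artery in 13 of 14 pigs, by 1.13-fold on average (log2 difference 0.18 ± 0.04 SE; limma adjusted p = 0.00105; exact sign-flip p = 0.00110, adjusted p = 0.00659). The exception was exercised pig 10_1 (-0.14), and the largest difference was 0.50 in exercised pig 14_3. In exercised pigs the difference was 0.19 ± 0.06 (limma adjusted p = 0.0120), which did not pass in the sign-flip test (exact p = 0.0469, adjusted p = 0.0938), and without pig 14_3 it was 0.14 (adjusted p = 0.0621). In sedentary pigs it was 0.16 ± 0.06 (limma adjusted p = 0.0413; exact sign-flip p = 0.0156, adjusted p = 0.0469). The limma call was lost under 7 of 15 other settings of the processing or the fit (0.09 to 0.24 over the 15). It was also lost on leaving out pig 10_2, 10_5, 11_1, 12_3, 13_2, 15_1 or 15_2, with an adjusted p of up to 0.116. Among the pigs dated first alone the average was 0.12 ± 0.06 (adjusted p = 0.147), and among those dated last 0.23 ± 0.06 (adjusted p = 0.00935).

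CHGB gave no detectable difference between the arteries: 0.03 ± 0.04 on average (SE; 95% interval -0.06 to 0.13; limma adjusted p = 0.544), with the brachial value higher in 8 of 14 pigs. Quantile normalization of the arrays turned its sign (-0.05). The CHGB probe set read low in both arteries, so equal levels of CHGB are not shown. SCG2 and CHGA, which both passed in this contrast, differed in opposite directions. The spike-in and ribosomal RNA probe sets named above differed between the same sets of arrays, and their part in these differences was not tested.

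The order of pigs in SCG2 was compared between the arteries. Exercised pig 15_2 was the highest in both arteries, and 15_4 and 14_3 were the lowest in both. Over the 7 exercised pigs Pearson's r was 0.685 (exact permutation p = 0.0800, adjusted p = 0.240 over 12 tests) and Spearman's rho 0.786 (p = 0.0480, adjusted p = 0.192). Without pigs 10_1 and 15_2, the farthest from the median, r was 0.711. Over the 7 sedentary pigs, whose SCG2 values were low, r was 0.506 (exact permutation p = 0.251, adjusted p = 0.603). Their rho was 0.464 (exact permutation p = 0.302, adjusted p = 0.605), and r was 0.249 without 10_2 and 11_4. CHGB in sedentary pigs gave the highest value of the 6 relations (r = 0.824, exact p = 0.0183, adjusted p = 0.143; rho = 0.857, exact p = 0.0238, adjusted p = 0.143; r = 0.698 without pigs 11_1 and 17_1). CHGA gave r of 0.365 in sedentary pigs (exact p = 0.418, adjusted p = 0.717; rho 0.214; r -0.461 without 11_4 and 12_3) and 0.0992 in exercised pigs (exact p = 0.834, adjusted p = 0.860; rho -0.25; r 0.734 without 10_1 and 14_3). CHGB in exercised pigs gave r of 0.110 (exact p = 0.837, adjusted p = 0.860; rho -0.0901; r 0.623 without 14_3 and 15_4). None of these relations passed the adjustment.

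Other members of the wider granin family had 4 of 5 genes on the array by symbol: SCG3 (secretogranin III, which tethers granins to granule membranes), SCG5 (the chaperone 7B2 of the convertase PCSK2), PCSK1N (proSAAS, an inhibitor of PCSK1) and GNAS. None of the 4 passed the test for training in either artery, where the share of all probe sets that passed was 1.63% for the brachial artery (1.02% higher, 0.613% lower) and 0.596% for the internal mammary artery (0.458% higher, 0.138% lower). Their median training difference was 0.18 (brachial) and 0.14 (internal mammary), against 0.01 for all probe sets in both. The GNAS locus also encodes a G protein subunit, and the array does not tell its transcripts apart. The GNAS probe set read low (group means 3.65 to 3.88). GNAS, SCG3 and SCG5 were among the dimmest 33.3% of probe sets, so small differences in them do not show that they were unchanged.

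PCSK1N came nearest to SCG2 in having its values shifted the same way in both arteries. In the internal mammary artery sedentary pigs ranged from 9.08 over a median of 9.26 to 9.72 and exercised pigs from 9.12 over 9.80 to 9.95. In the brachial artery they ranged from 9.91 over 10.4 to 10.5 and from 10.3 over 10.9 to 11.1. The groups overlapped in both arteries, with 6 of 8 and 5 of 7 exercised pigs above every sedentary pig. The training difference was 0.44 ± 0.13 in the internal mammary (limma adjusted p = 0.123) and 0.51 ± 0.14 in the brachial artery (adjusted p = 0.0538).

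Averaged over both arteries PCSK1N rose with training by 0.47 ± 0.11, or 1.39-fold (limma adjusted p = 0.00960), in a contrast that 4.68% of all probe sets passed. The call was lost when the mean of the macrophage markers entered the fit (0.44 ± 0.12, adjusted p = 0.0625) and within either period (0.58 ± 0.16, adjusted p = 0.0865, and 0.40 ± 0.11, adjusted p = 0.197). Leaving out exercised pig 12_2 brought the internal mammary difference to 0.53 (adjusted p = 0.0493). The brachial difference passed without pig 10_2 (0.55, adjusted p = 0.0486), 12_2 (0.53, adjusted p = 0.0265) or 14_3 (0.58, adjusted p = 0.0316). Under 15 other settings of the processing or the fit the brachial difference passed in 5 (0.27 to 0.79 over the 15) and the internal mammary difference in 3 (0.34 to 0.53). Between arteries PCSK1N was 2.00-fold higher in the brachial artery (1.00 ± 0.08, adjusted p = 7.51e-11), higher in 14 of 14 pigs and thus opposite in direction to SCG2.

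**Figure D3:**
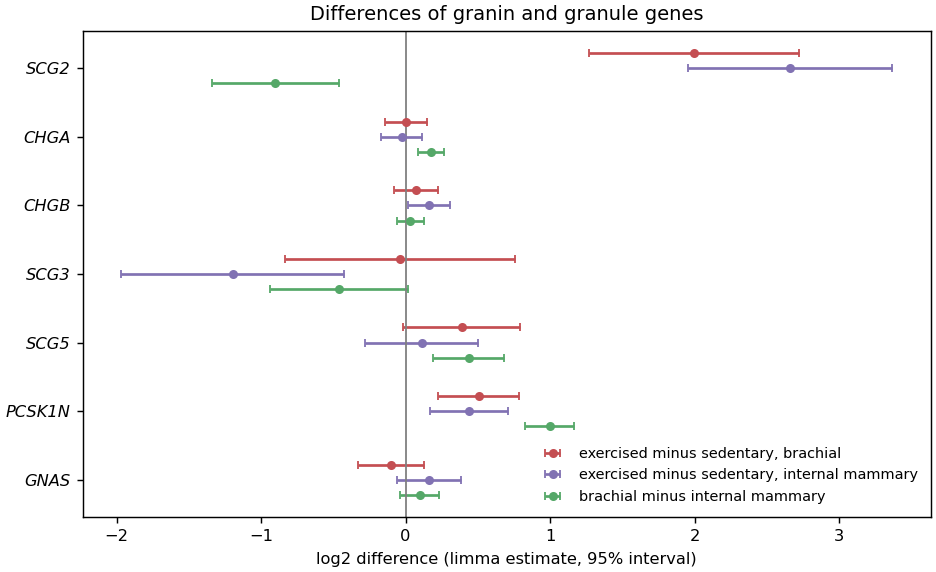
Log2 differences with 95% intervals from limma for the granins and 4 related granule genes: exercised minus sedentary in the brachial artery (red) and in the internal mammary artery (purple), and brachial minus internal mammary (green). SCG2 lies at 2.00 and 2.66 for training and at -0.90 between arteries. For training, CHGA lies at 0.00 and -0.03 and CHGB at 0.07 and 0.16. The training values of these 3 genes are a description, with no test.

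SCG5 was 0.44 ± 0.12 higher in the brachial artery (limma adjusted p = 0.00290), and its training differences of 0.39 ± 0.20 (brachial, adjusted p = 0.353) and 0.11 ± 0.19 (internal mammary, adjusted p = 0.874) did not pass. SCG3 had a training difference of -1.20 ± 0.38 in the internal mammary artery (adjusted p = 0.138) that rested on 3 sedentary arrays. They read 6.45 in pig 11_1, 7.55 in 13_2 and 7.61 in 15_1, against 4.27 to 4.88 on the other 26 arrays. Without these pigs the SCG3 difference was -0.08 ± 0.12 (adjusted p = 0.899). SCG2 in these pigs was 5.24, 5.46 and 5.79, the upper end of its sedentary internal mammary values.

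**Figure D4:**
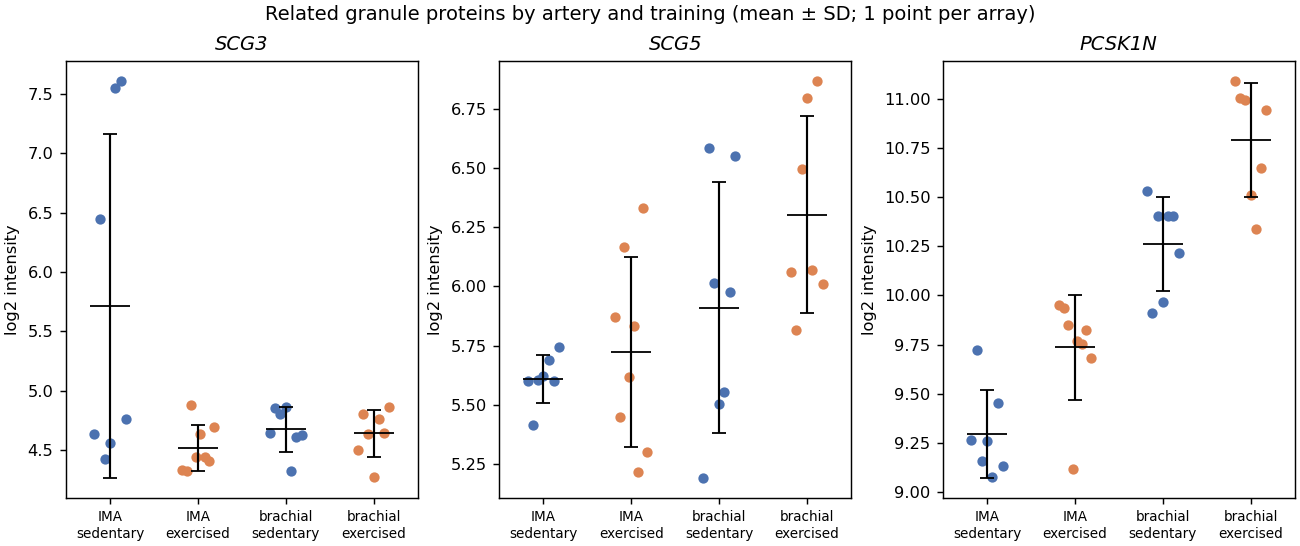
Log2 intensity of SCG3, SCG5 and PCSK1N on each array (points) with the mean and SD of each group, sedentary in blue and exercised in orange, in the internal mammary artery (IMA) and the brachial artery; each panel has its own scale. SCG3 is between 4.27 and 4.88 on all but 3 sedentary internal mammary arrays, which lie at 6.45 to 7.61, and 1 exercised array of PCSK1N lies apart at 9.12.

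No measured member of the machinery that makes and releases granin peptides passed the test for training. Of all probe sets only 1.63% (brachial) and 0.596% (internal mammary) passed. In lists this short 0 calls are near that share, here and in the lists that follow, and are not read as a result about them. Of 11 prohormone processing enzymes 6 were on the array, and 0 passed in either artery. The nearest were PAM, which amidates peptides (brachial 0.24 ± 0.08, adjusted p = 0.110), and PCSK2, which cuts prohormones (brachial 0.21 ± 0.09, adjusted p = 0.267). Several of these enzymes differed between arteries: PCSK2 (0.35 ± 0.06), PCSK7 (0.32 ± 0.08) and PAM (0.18 ± 0.05) were higher and the carboxypeptidase CPD (-0.60 ± 0.09) was lower in the brachial artery. Of the 6 enzymes, 4 were higher and 1 was lower in that contrast, in which 31.8% of all probe sets were higher and 22.5% lower.

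Of 37 genes of dense core granule exocytosis 15 were measured, and 0 passed for training in either artery, with medians of 0.00 (brachial) and 0.06 (internal mammary). RAB3A, a small GTPase of granule docking, came nearest with 0.33 ± 0.09 in the brachial (adjusted p = 0.0513) and 0.28 ± 0.09 in the internal mammary artery (adjusted p = 0.133). Between arteries SYT5 (0.83 ± 0.05), a calcium sensor of the synaptotagmin family, and VAMP2 (0.61 ± 0.07), a vesicle SNARE, were higher in the brachial artery, and SNAP23, a target membrane SNARE, was lower (-0.16 ± 0.04). In all 5 of the 15 were higher and 3 were lower, near the shares of all probe sets (31.8% higher and 22.5% lower).

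Weibel-Palade bodies are the storage granules of endothelial cells. Of 15 genes for their cargo and release 9 were measured, and 0 passed for training. VWF, their main cargo, differed by 0.23 ± 0.65 in the brachial (adjusted p = 0.912) and -2.14 ± 0.63 in the internal mammary artery (adjusted p = 0.112). Without sedentary pigs 11_1, 13_2 and 15_1 the latter was -0.38 ± 0.37 (adjusted p = 0.814). PLAT, the tissue plasminogen activator, differed by 0.70 ± 0.24 (adjusted p = 0.128) and 0.52 ± 0.23 (adjusted p = 0.351). Among 23 secreted neuropeptides and peptide hormones 15 were measured and 0 passed for training. The vasodilator peptide ADM had the lowest values, -0.93 ± 0.30 (adjusted p = 0.102) and -0.96 ± 0.29 (adjusted p = 0.126). NPY, the sympathetic cotransmitter, differed by 0.07 ± 0.08 and -0.03 ± 0.08.

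Genes around SCG2 in signalling also gave no call for training, again near the share of all probe sets (1.63% brachial, 0.596% internal mammary). Of 7 genes for VEGF, FGF and their receptors 6 were measured and 0 passed. KDR, the main VEGF receptor of endothelium, differed by 0.10 ± 0.10 (brachial) and 0.06 ± 0.10 (internal mammary). Its probe set read low (group means 3.90 to 4.19), so these small differences do not show that KDR was unchanged. Of 21 cyclic AMP, CREB and REST regulators 8 were measured and 0 passed, and CREB1 differed by 0.00 ± 0.09 and -0.07 ± 0.08. Of 15 genes known to respond to CREB 11 were measured and 0 passed, their medians being -0.01 (brachial) and 0.14 (internal mammary). Within this list NR4A3 had the largest brachial value (-1.35 ± 0.59, adjusted p = 0.253) and ATF3 the largest internal mammary value (0.89 ± 0.61, adjusted p = 0.610). Between arteries 4 of the 11 were lower in the brachial artery, among them the immediate early genes FOS (-2.11 ± 0.25) and EGR1 (-1.26 ± 0.16), and 3 were higher. Of all probe sets 22.5% were lower and 31.8% higher there. Genes such as VGF, REST, CPE, FURIN and NRP1 were not matched by symbol.

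Granins mark neurons and endocrine cells, so markers of these and of other cells in a scrape were read beside SCG2. Of 24 nerve and neuron markers 11 were measured, with TH, DBH and SYP not matched by symbol. ELAVL4, a neuronal RNA-binding protein, rose with training in the brachial artery (0.71 ± 0.16, limma adjusted p = 0.0243). No other member passed for training in either artery. Of all probe sets 1.02% passed as higher with training in the brachial artery. The ELAVL4 call was lost without pig 12_5 (adjusted p = 0.0655) or 15_2 (adjusted p = 0.0571) and under 5 of 14 other settings. The mean of the 11 markers was 5.73 ± 0.20 in sedentary and 5.72 ± 0.21 in exercised brachial scrapes, and 5.32 ± 0.22 and 5.31 ± 0.12 in internal mammary scrapes. Between arteries 10 of the 11 were higher in the brachial artery, where 31.8% of all probe sets were higher. The calls of ENO2, UCHL1, ELAVL4, RTN1 and SYN1 among them changed under 2 to 6 of 14 or 15 other settings. Those of RTN1, SYN1 and UCHL1 turned in sign with the nerve mean, which holds them, in the fit. With this mean as a covariate the SCG2 training differences were 2.01 ± 0.35 and 2.66 ± 0.34.

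Of 9 chromaffin and neuroendocrine markers 3 were measured and 0 passed for training. PNMT, the enzyme that makes adrenaline, differed by 0.05 ± 0.07 (brachial) and 0.20 ± 0.07 (internal mammary) (adjusted p = 0.784 and 0.167). Of 11 Schwann cell markers 3, and of 8 mast cell markers 3, were measured, and 0 passed for training. Of all probe sets 0.613% passed as lower with training in the brachial artery. Among macrophage markers C1QC (-0.81 ± 0.18), TYROBP (-0.66 ± 0.16) and FCER1G (-0.88 ± 0.21) fell there (limma adjusted p = 0.0228, 0.0259 and 0.0255), 3 of 8 measured. Each of these calls was lost on leaving out pig 12_3, 12_5, 15_2 or 17_1, TYROBP and FCER1G also without 11_4 and TYROBP without 10_5, with adjusted p of up to 0.0740, and each under 4 of 15 other settings. The macrophage mean was 9.25 ± 0.34 in sedentary and 8.69 ± 0.22 in exercised brachial scrapes, and 9.31 ± 0.30 and 9.27 ± 0.24 in internal mammary scrapes. With it as a covariate SCG2 differed by 2.47 ± 0.44 (brachial) and 2.69 ± 0.33 (internal mammary).

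All 10 measured smooth muscle markers had negative training differences in both arteries and 0 passed. Their medians were -0.25 (brachial) and -0.29 (internal mammary), against 0.01 for all probe sets in both. The 10 values come from the same arrays and are not separate observations. The smooth muscle mean was 12.3 ± 0.68 (SD) in sedentary and 12.1 ± 0.63 in exercised brachial scrapes. In internal mammary scrapes it was 12.0 ± 0.51 and 11.7 ± 0.53. The 11 endothelial markers gave medians of 0.06 and 0.08, and 0 passed. The B cell gene CD79B rose in the internal mammary artery (1.46 ± 0.31, limma adjusted p = 0.0244), 1 of 5 measured T and B cell markers. Of all probe sets 0.458% passed as higher there. The CD79B call was lost without pig 11_1, 12_3, 13_2 or 15_2 (adjusted p up to 0.0662) and under 4 of 15 other settings. The ratio of 28S to 18S ribosomal RNA in the labels averaged 1.19 ± 0.0763 (SD) in sedentary and 1.33 ± 0.0841 in exercised internal mammary samples. With it as a covariate the SCG2 difference there was 2.61 ± 0.38. After group means were subtracted, SCG2 had correlations over the 29 arrays of 0.14 with the endothelial mean, -0.01 with smooth muscle, 0.26 with macrophages, 0.08 with nerve and -0.04 with the ribosomal RNA ratio. These describe arrays of which 28 share a pig with another array. The relation with the nerve mean was uneven between groups. Its r with SCG2 was 0.96 in sedentary and -0.32 in exercised internal mammary scrapes, and 0.40 and -0.25 in brachial scrapes.

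Genes that varied with SCG2 within the groups were sought over the 29 arrays after subtracting the 4 group means, again as a description. STMN2, a microtubule regulator best known from neurons, had the highest r of genes with 1 symbol (0.67, and 0.61 for its second probe set). Its r with SCG2 was 0.74 in sedentary and 0.58 in exercised internal mammary scrapes, and 0.92 in sedentary and 0.81 in exercised brachial scrapes. STMN2 itself differed with training by 0.34 ± 0.30 in the brachial (adjusted p = 0.644) and 0.48 ± 0.29 in the internal mammary artery (adjusted p = 0.548). The second STMN2 probe set gave 0.59 ± 0.49 (adjusted p = 0.621) and 1.11 ± 0.47 (adjusted p = 0.317). The first STMN2 probe set was 0.43 ± 0.18 higher in the brachial artery (adjusted p = 0.0479), where SCG2 was lower. Of all probe sets 0.579% had a centred r above 0.5 in size, and the highest, a probe set with no symbol, had 0.72.

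**Figure D5:**
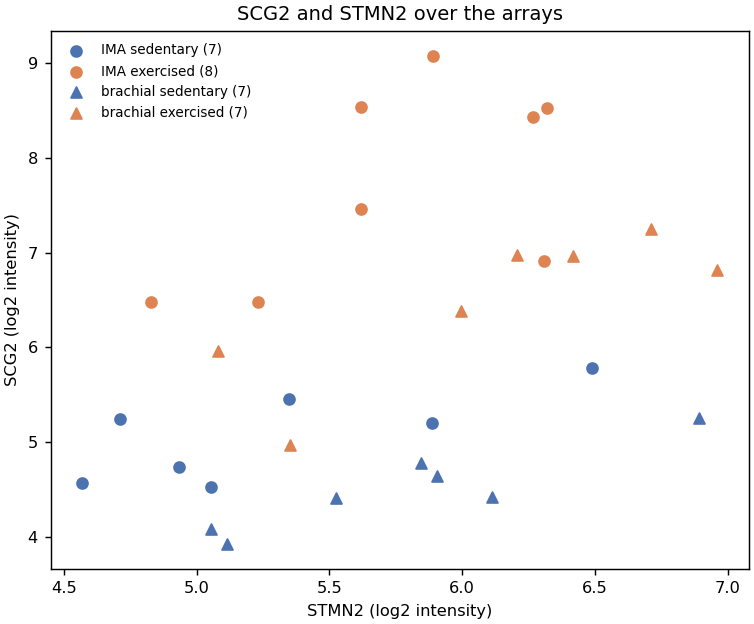
SCG2 (vertical axis, log2 intensity) against STMN2 (horizontal axis, log2 intensity) on the 29 arrays, with circles for the internal mammary artery (IMA), triangles for the brachial artery, blue for sedentary and orange for exercised pigs. The groups form bands at different SCG2 levels, and within each band SCG2 is higher where STMN2 is higher, with r of 0.74, 0.58, 0.92 and 0.81 in the order of the legend.

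Next in order were LOC100513601 (0.65), the sulfatase SULF2 (0.62, and 0.50 for its second probe set), IBTK (0.58), TMEM139 (0.56), the complement protein CFP (0.56, and 0.33 for its second probe set), the Golgi protein GOLM1 (0.55) and the lipid receptor LPAR6 (0.55). The lowest were the nucleoside transporter SLC28A3 (-0.58), NUBP1 (-0.57), the neuropeptide receptor PPYR1 (-0.55) and NRBP1 (-0.54). SULF2 had r of 0.23 and 0.71 in sedentary and exercised internal mammary scrapes and 0.68 and 0.60 in brachial scrapes, so its likeness to SCG2 was less even than that of STMN2. Over the arrays as they are, with the group differences kept in, the genes most like SCG2 were SULT1A3 (0.80), RAB3A (0.79), FAM13A (0.78), IGF1 (0.76), EPOR (0.76), CCNG2 (0.76), TFF2 (0.76) and SIDT2 (0.76). The other IGF1 probe sets gave 0.63 and -0.04. These second values follow the training contrast that had singled SCG2 out. After centring RAB3A kept 0.49 and TFF2 0.05.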

How the data were processed

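RNA from luminal scrapes of 29 artery samples was measured on single-colour porcine arrays. The authors deposited log2 intensities per probe set, with affy named without a version per the submitters' processing notes. Their summary, background and normalization methods are not given in the sources used here, and signal over background could not be measured. Of 24123 probe sets 124 controls were left out of the tests. The platform annotation gave 1 symbol for 10069 of the 23999 tested, several for 198 and none for 13732. The number of arrays limits the precision.

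Groups came from the titles. The model, fitted with limma 3.58.1 under R 4.3.3, had a mean for each of 4 groups and treated the pig as a random block (estimated correlation 0.255), since the pig identifiers in the labels pair the arteries. P-values were moderated and adjusted by Benjamini-Hochberg over all probe sets, with 0.05 as the threshold. Single values were tested by exact permutation over pigs. Figures were drawn with matplotlib 3.10.9 (Python 3.11.15). The fit was tested on simulated data.

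The members, gene lists and comparisons were chosen with earlier results of these data known. Each listed gene was represented by its probe set with the highest mean. Named are the granins, list members that pass or come nearest to passing in a training or artery comparison, neighbours of SCG2 in rank, and the genes most and least like SCG2 in pattern. Named after their values were seen were SCG3's companions, NPY, KDR, CREB1 and unmatched genes. Alternatives were no block or a fixed block, dropping the 33.3% of probe sets with the lowest mean, renewed centring or quantile normalization, a trended robust prior, array weights, covariates, either period alone, and each pig left out. Leaving out pigs 11_1, 13_2 and 15_1 was chosen after seeing the data.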

Additional observations from a re-analysis of the deposited data

Results flagged for a closer look

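PCSK1N in the internal mammary artery of exercised pig 12_2 stood at 9.12, below the other 7 exercised pigs at 9.68 to 9.95, a gap of 0.68 of the group's whole range, above Dixon's 95% critical value for 8 samples. This pig has no brachial array, and its SCG2 was 8.43, among the higher values of its group. Without it the PCSK1N training difference in the internal mammary artery was 0.53 (limma adjusted p = 0.0493). In all 28 groups of 7 or 8 arrays were examined in this way and 1 stood out, where chance gives about 1 in 20.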

How the results depend on the processing

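Under 15 alternatives and with each of 15 pigs left out, SCG2 stayed higher in exercised pigs. Because SCG2 was selected on this contrast in the same arrays, its stability is not independent support. The brachial difference ranged from 1.40 to 2.54 over the alternatives and from 1.88 to 2.24 over single pigs left out, and the internal mammary difference from 2.16 to 3.06 and from 2.47 to 2.84. Leaving out single pigs gave 2.17 to 2.54 for the average, -0.84 to -0.53 for the interaction, -0.99 to -0.83 for brachial minus internal mammary, -0.67 to -0.47 for it in sedentary and -1.41 to -1.10 in exercised pigs. The artery call in exercised pigs was lost with the macrophage covariate (-0.75). Without a replicate block SCG2 differed by 1.97 and 2.66 with training and by -0.91 between arteries, and with pig as a fixed block by 1.97, 2.66 and -0.87. With the fixed block, which fits fewer arrays at a time, 122 brachial and 13 internal mammary probe sets passed for training, against 392 and 143.

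Other settings that moved the brachial count by over 1.5 times were the periods alone (11 and 0, with 3405 and 2355 at an unadjusted p under 0.05), covariates for smooth muscle (783), macrophages (5) and nerve (645), and leaving out pigs 11_1, 13_2 and 15_1 (128). For the internal mammary count they were the periods (5 and 0, with 2510 and 1662 unadjusted), array weights (337), the 28S/18S ratio (273), smooth muscle (244), nerve (270) and those 3 pigs (27). Leaving out single pigs gave 149 (without 12_5) to 589 (without 15_4) brachial, 35 (without 10_5) to 291 (without 10_2) internal mammary and 0 to 1 interaction probe sets in limma, and 12316 to 13216 between arteries. The interaction count was 3 with the smooth muscle covariate, and 8596 probe sets differed between arteries in the period dated last, which holds fewer pigs. Leaving out the dimmest 33.3% of probe sets removed CHGB and, of its relatives, SCG3, SCG5 and GNAS, so they have no value there. The other causes were not tested.

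Signs turned for values near 0: the CHGA interaction in the period dated first (-0.10) and without pig 14_3 (-0.018, against up to 0.081 without other single pigs), the CHGB interaction in the period dated last (0.011) and CHGB between arteries after quantile normalization (-0.051). With the nerve covariate, brachial minus internal mammary turned for NSF (0.026), ANGPT2 (-0.41), CXCL8 (0.29), FGF2 (0.19), ERG (0.030), TEK (0.029), DES (-0.015), MYL9 (-0.47), CNN1 (-1.19), RTN1 (-0.43), SYN1 (-0.064), UCHL1 (-0.74) and LPL (-0.043). No probe's signal over background was known, and 7 or 8 pigs per group limit the intervals above.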

Other observations

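SCG3 shared its pattern of 3 high internal mammary arrays with other genes, chosen here after their values were seen. In sedentary pigs 11_1, 13_2 and 15_1 the protease MMP7 read 9.09, 12.3 and 11.5, against 4.07 to 5.53 on the other 26 arrays. VWF, an endothelial marker and the main Weibel-Palade cargo, read 11.1, 12.1 and 11.2, against 6.04 to 8.47. GABRA4, a GABA receptor subunit, read 5.90, 6.73 and 6.21, against 2.26 to 2.95, and the phospholipase PLA1A 8.12, 9.86 and 9.13, against 4.50 to 6.18. The serotonin transporter SLC6A4 read 6.99, 7.13 and 7.03, against 5.36 to 6.02, and CYP26A1, which degrades retinoic acid, 5.45, 6.06 and 6.88, against 4.59 to 5.16.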
